A study of Mus musculus with 23 samples.

Results

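The knee cartilage libraries were read here at the level of assembled loci, genomic stretches in which overlapping reads had been joined into transcript models. The deposited count table holds 90308 rows, of which 26550 are assembled models with names of the form MSTRG.a.b, where MSTRG.a names the locus and b the model. A locus was kept when at least 2 of its models had a mean above 1 CPM (counts per 1000000 counts of the library's column) over the 22 usable libraries, and 3348 of 12881 assembled loci (26%) met this rule. They are called multi-model loci below. Of the other assembled loci, 8279 list a single model and 1254 list 2 or more without meeting the limit. The loci were chosen by the mean CPM of their models, so that they have several detected models is not a result.

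The mice were male, of the mixed strain C57BL/6-129, and were either wild type (labelled TET1+/+, WT below) or Tet1 mutant (labelled TET-/-, KO below). They were operated on at 3 to 4 months of age by destabilization of the medial meniscus (DMM) or by sham surgery, and cartilage was microdissected from the knee 6 or 12 weeks later. Each of the 8 groups of genotype, surgery and time has 3 samples, except WT sham at 6 weeks, which has 2, and 1 of those columns (replicate 1) was out of register with the row names and was left out. WT sham at 6 weeks is therefore 1 library, replicate 3. The sources used here do not say how the mutant allele was made. They differ on the sham knees, which are contralateral according to the treatment protocol and from age-matched controls according to the design text, so a DMM knee and a sham knee may or may not share an animal. Replicate numbers were therefore not used as pairs, and counts from a fit with the replicate number as a block are given where they differ by over 1.5 times. That block gives each number a single term shared by all groups, so it does not show what pairing of knees would do. If knees share animals, the genotype and time averages treat knees of the same mouse as independent. The labels describe the replicates as biological.

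TET1 is an enzyme that converts 5-methylcytosine in DNA to 5-hydroxymethylcytosine, a step towards removing the methyl mark. DMM cuts a ligament that anchors the medial meniscus, and the unstable joint goes on to lose articular cartilage, which makes it a standard mouse model of osteoarthritis. A gene can give rise to several transcripts through alternative promoters, splicing and polyadenylation. Such transcripts share most of their exons, so a short read often fits several models, and a counting program has to divide reads among them by estimate. Throughout, 2 quantities are kept apart: the total of a locus, which is the sum over its assembled models, and the share of a model, which is its percentage of that total.

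The files do not pair the row names with genes, and looking up all 90308 in the gene tables at hand gave 0 matches. Loci are given by their identifiers, and their positions, sequences, the level of Tet1 itself and the markers of cartilage were not analysed here. Column totals were 34.9 to 85.7 M counts (M, 1000000) at 6 weeks and 46.5 to 113 M at 12 weeks, so that 3 counts, the limit that a value of 0 allows, lie between 0.0266 and 0.0860 CPM. These limits cover counting error alone. The column left out had Spearman correlations of 0.0149 to 0.0294 with the others over 53502 rows, against 0.610 to 0.764 among the other 22. The multi-model loci took 14.5% to 18.7% of the counts of a library.

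The 3348 loci list 14927 models, of which 11592 were above the limit and 3335 were not. There were 1524 loci with 2 models above the limit, 790 with 3, 423 with 4, 229 with 5 and 382 with 6 or more. The mean total of a locus had a median of 23.0 CPM, with quartiles of 11.2 and 46.7 CPM and a range of 2.17 to 8834 CPM. In 2326 loci the highest model number exceeds the number of models listed, and any model of those loci under another name is not in their totals. Just inside the limit were MSTRG.22906 and MSTRG.156, with second models at 1.000613 and 1.000778 CPM. Just outside were MSTRG.15764 and MSTRG.16027, at 0.998967 and 0.993276 CPM.

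In 51.7% of the multi-model loci, 80% or more of the locus passed from 1 model to another between libraries. Exchange was counted where at least 2 models of a locus each held 80% or more of its total in at least 1 library with a total of at least 1 CPM. It occurred in 1731 loci, in 2784 when 50% was taken as holding a locus and in 952 when 95% was. In 1149 of these 2 models held such a share somewhere, in 430 it was 3 models and in 152 it was 4 or more, up to 7. Of the remaining loci, 1137 had a single model that reached 80% and 480 had none. In 1378 of the 1731 loci (79.6%) the exchange could be seen among replicates of a single group, which share genotype, surgery and time. The other 353 showed it between groups alone.

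Locus MSTRG.23306 is the extreme case among loci with a mean total of at least 10 CPM. Its total was nearly level, at 18.6 to 29.2 CPM over the 22 libraries with a coefficient of variation (CV, SD divided by the mean) of 13.4%. Model MSTRG.23306.1 led in 10 libraries, at 87.9% to 100% of the locus where it led. Model MSTRG.23306.2 led in 6 libraries at 85.8% to 97.6%, model MSTRG.23306.5 in 3 at 88.3% to 97.4%, model MSTRG.23306.3 in 1 at 97.2% and model MSTRG.23306.4 in 1 at 100%. In WT DMM at 6 weeks, model MSTRG.23306.1 held 100%, 100% and 4.68% of the locus in replicates 1, 2 and 3, and model MSTRG.23306.2 held 0%, 0% and 90.4%. In KO sham at 6 weeks the replicates were led by 3 different models, MSTRG.23306.4 at 100%, MSTRG.23306.2 at 97.6% and MSTRG.23306.1 at 100%. Exchange among replicates was present in 7 of the 8 groups, which is all with more than 1 library, and the CV of model MSTRG.23306.1 was 106%.

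Locus MSTRG.8434 divided the 22 libraries between models MSTRG.8434.2 and MSTRG.8434.3 almost completely. Model MSTRG.8434.2 held 100% in all 3 KO sham libraries at 6 weeks but 100%, 0% and 0% in KO DMM at 6 weeks, where model MSTRG.8434.3 held 0%, 100% and 100%. At 12 weeks WT sham replicates 1, 2 and 3 were each held at 100% by another model, MSTRG.8434.3, MSTRG.8434.1 and MSTRG.8434.2 in turn. The total stayed between 28.6 and 52.9 CPM, and model MSTRG.8434.2 led 12 libraries, MSTRG.8434.3 led 9 and MSTRG.8434.1 led 1. Locus MSTRG.20627, with totals of 25.6 to 45.7 CPM, was led by MSTRG.20627.1 in 10 libraries and by MSTRG.20627.2 in 10, and by MSTRG.20627.5 and MSTRG.20627.6 in 1 each. In WT DMM at 6 weeks its model MSTRG.20627.1 held 94.8%, 0% and 99.9%. The other 3 loci of lowest variance ratio were MSTRG.13764, MSTRG.12531 and MSTRG.19758. Their totals were 25.9 to 47.7, 13.7 to 26.2 and 16.5 to 26.4 CPM, and 6, 4 and 3 of their models led in some library.

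**Figure D1:**
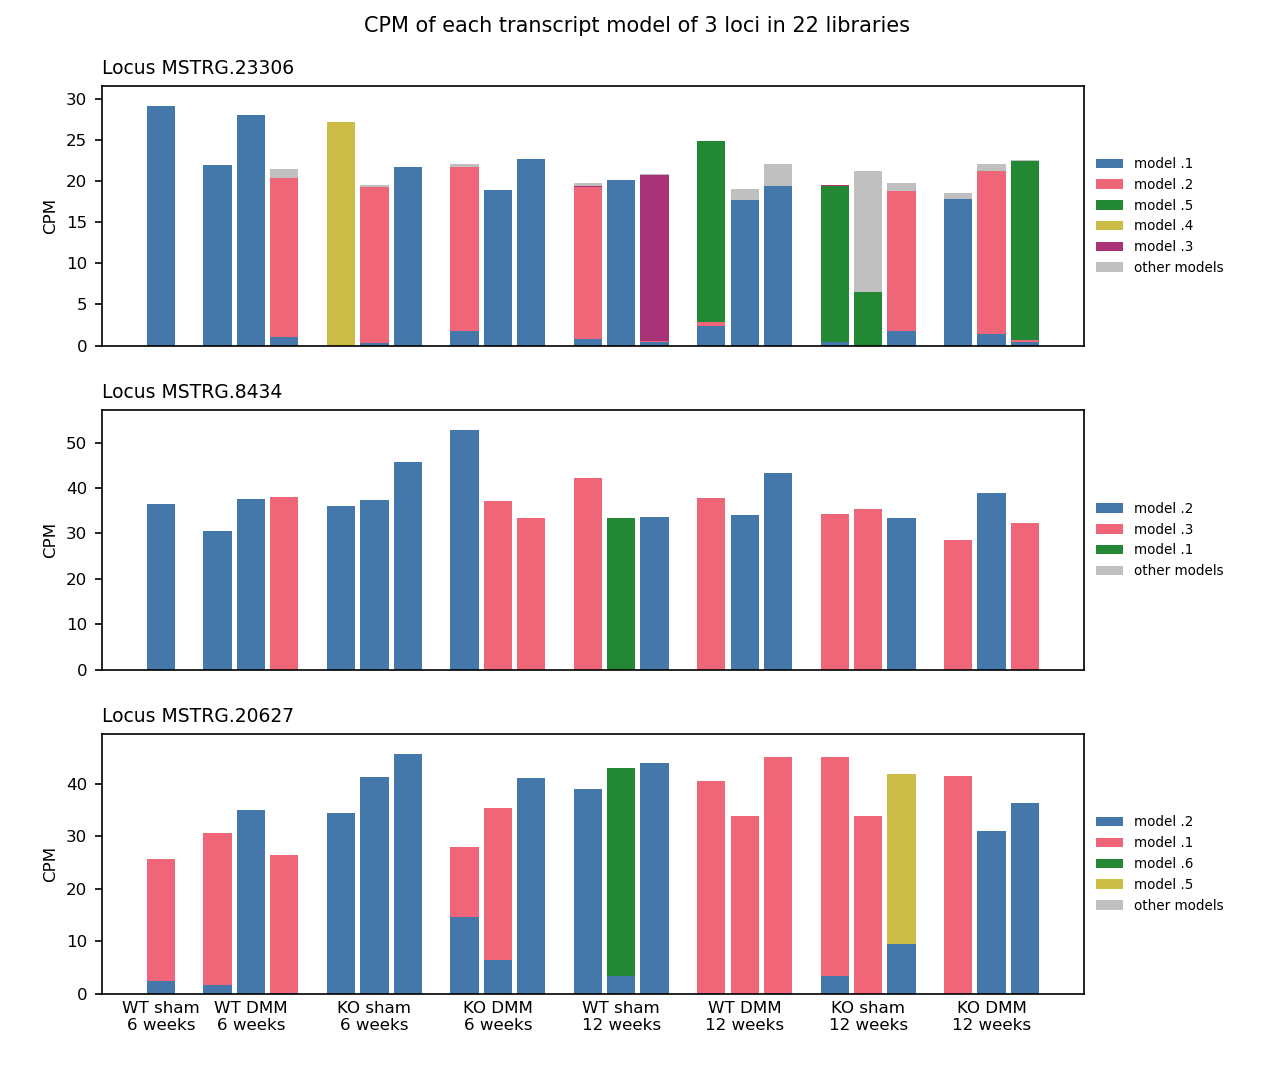
Stacked bars of the CPM of each transcript model (colours, grey for further models) of MSTRG.23306, MSTRG.8434 and MSTRG.20627 in each of the 22 libraries, ordered by group. The height of the bars, which is the locus total, stays between 18.6 and 29.2, 28.6 and 52.9, and 25.6 and 45.7 CPM, while the colour that fills a bar changes between neighbouring replicates.

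The same pattern was measured over all multi-model loci as a variance ratio: the variance of the total over the libraries, divided by the summed variances of its models. The ratio is 1 where models vary independently, below 1 where they replace each other and above 1 where they move together. Its median was 0.846, with quartiles of 0.556 and 1.125 and a range of 0.0278 to 8.28. It was below 1 in 2189 loci (65.4%) and below 0.5 in 683. No test was made of it.

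Totals were steadier than the models within them. The median CV among replicates of a group was 37.6% for totals, 58.2% for the leading model of a locus (the one with the largest mean share) and 72.0% for models above the limit. Over all 22 libraries the leading model had a larger CV than its own total in 2847 of 3348 loci (85.0%), and a CV more than 2 times that of the total in 579. In loci with exchange the median CV was 58.2% for totals and 88.3% for leading models. In loci without it the medians were 35% and 47.4%. Loci with exchange thus also had the more variable totals. A sum of models that do not move in step tends to vary less than its parts, and exchange itself requires shares to change. The CVs are therefore descriptions.

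**Figure D2:**
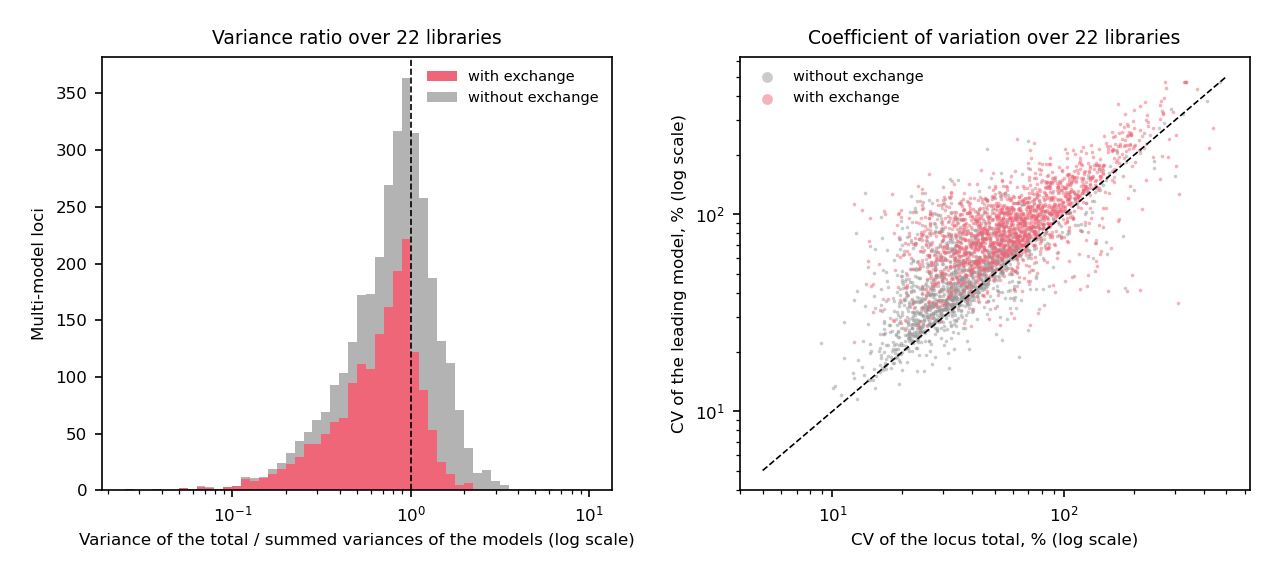
Left, the number of multi-model loci by variance ratio (log axis), with loci that show whole-locus exchange in red and the others in grey, and a dashed line at 1. Right, the CV of the leading model against the CV of the total for each locus (both log axes, in percent), with a dashed line of equality. The bulk of loci lies left of 1 (2189 of 3348) and above the line of equality (2847 of 3348).

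The share of loci with exchange was lower where more models or more counts were present. Exchange was found in 56.1% of loci with 2 models above the limit, 54.6% with 3, 49.7% with 4 or 5 and 31.7% with 6 or more. With the loci divided into 4 equal sets by mean total, from lowest to highest, it was found in 65.0%, 56.8%, 47.2% and 37.9%. The number of models and the total are themselves used in the definition of exchange, so these shares are descriptions.

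The leading model of a locus held a median mean share of 58.7% (quartiles 45.4% and 73.9%). Within a single library the model that led there held a median of 75.1% to 79.3% at 6 weeks and 73.6% to 75.2% at 12 weeks. Of the 2466 loci with at least 1 CPM in all libraries, 329 (13.3%) were led by the same model in all 22, 926 by 2 models and 1211 by 3 or more, up to 19. Of the 11592 models above the limit, 5203 had a count in all libraries, 6389 were at 0 in at least 1 and 1983 were at 0 in 11 or more. Of the 6389, 5256 were at 0 in a library where their own locus stood at 10 CPM or more. The number of models at 0 ranged from 2112 to 3196 in a library at 6 weeks and from 1688 to 2640 at 12 weeks, where libraries were deeper.

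Other loci stayed with 1 model in all libraries. Model MSTRG.917.7 held 99.4% ± 0.269 (SD, n = 22) of a locus with a mean total of 422 CPM. MSTRG.5680.8 held 99.1% ± 0.379 and MSTRG.22826.4 held 98.6% ± 0.519 (both SD, n = 22), with locus means of 136 and 107 CPM. These 3 had the smallest SD of the leading share among loci with a mean total of at least 10 CPM.

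The 5 loci with the highest mean totals differed among themselves in how their counts were divided. MSTRG.2909 had the highest mean total, 8834 CPM, with a range of 1559 to 21393 CPM, and 10 of its 11 models led in some library. MSTRG.2908 followed at a mean of 3603 CPM with 48 models, 39 of them above the limit, and 4 that led somewhere. MSTRG.17196 had a mean of 3405 CPM but was at 0 in 5 libraries and reached 13441 CPM in another. MSTRG.3750 (mean 2985 CPM) has 2 models, and its model MSTRG.3750.3 stood at 4.20 and 4.43 CPM in WT sham replicate 3 at 6 weeks and KO DMM replicate 2 at 12 weeks, against 1677 to 4210 CPM in the other 20 libraries. MSTRG.19546 had a mean of 2356 CPM and 20 models, of which 5 led somewhere. Their variance ratios ran from 0.709 for MSTRG.2909 to 2.52 for MSTRG.2908.

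The loci with the most models above the limit were MSTRG.5989 (76 of 182 listed), MSTRG.18517 (66 of 87) and MSTRG.17782 (49 of 69). No model of these 3 held 80% in any library, and 4, 10 and 9 of their models led somewhere. Their variance ratios were 2.93, 1.71 and 1.37, so their models rose and fell together more than they replaced each other.

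Whether leading models followed the study's groups was described by the share of loci with the same leading model in 2 libraries. The 21 pairs of libraries from the same group had a median of 60.3% (56.2% to 64.6%). The 30 pairs that differed in genotype alone had 60.6%, the 30 in surgery alone 61.0% and the 30 in both 59.6%. Pairs that differed in time had medians of 57.9% (time alone), 58.0% (with genotype), 58.3% (with surgery) and 57.8% (all 3). The medians for pairs of different genotype or surgery at the same time lay on both sides of that for replicates of a group, and the medians for pairs across times lay below it. Libraries recur in many pairs, so no test was made.

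**Figure D3:**
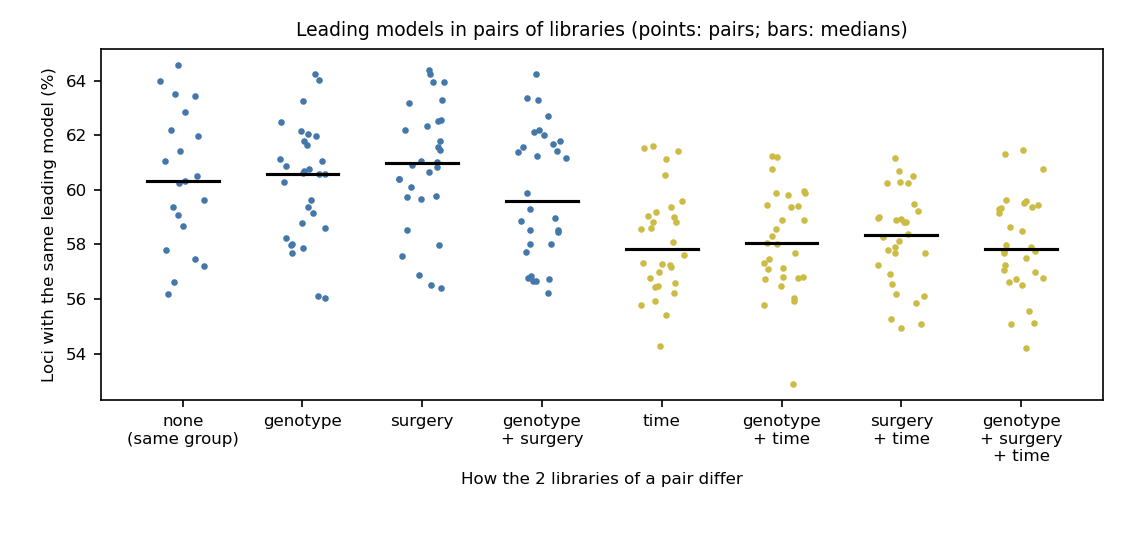
The percentage of multi-model loci with the same leading model in 2 libraries (points are pairs of libraries, bars are medians), by what the 2 libraries differ in. Medians are 59.6% to 61.0% for pairs of the same time and 57.8% to 58.3% for pairs of different times (yellow), and the clouds overlap.

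Few loci had a leading model that was uniform within groups and different between them. For KO against WT DMM at 6 weeks, 25 of the 2740 multi-model loci read in all 6 libraries (0.912%) were led by 1 model in all KO libraries and by another in all WT libraries, beside 0.774% of all assembled loci with 2 or more models. At 12 weeks it was 22 of 2852 (0.771%, beside 0.654%), and for WT DMM against WT sham at 12 weeks 18 of 2908 (0.619%, beside 0.549%). At 6 weeks 787 of the 2740 loci had a uniform leading model in each of the groups. The count is made with no test.

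MSTRG.13786, chosen after its values were seen as the locus with the highest mean total among the 22 at 12 weeks, shows what such a locus looks like. Its model MSTRG.13786.1 held 5.37%, 4.70% and 7.31% in WT DMM at 12 weeks and 56.9%, 53.7% and 50.9% in KO DMM. The same low share of MSTRG.13786.1 occurred elsewhere, at 4.96% in WT sham replicate 2 and 4.19% in KO sham replicate 1 at 12 weeks and at 6.22% in KO DMM replicate 2 at 6 weeks, with 43.7% to 63.1% in the other libraries. Low and high shares both occurred in libraries of each genotype, surgery and time.

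Formal tests were made at 3 levels with edgeR's quasi-likelihood fit to all 22 libraries, with 1 mean for each group: locus totals, model shares (each model against the rest of its locus) and single models on their own. Calls are at a Benjamini-Hochberg adjusted p below 0.05 over all features tested, which are 53728 totals and reference-named transcripts, 18071 models of loci with 2 or more, and 67238 single rows. Log2 differences are given with their standard errors (SE). All 3348 totals and 14835 of the 14927 models passed the filter on low counts. A locus can belong to the 3348 through its level in some libraries alone, so the counts of calls below are read only beside the share called among all features. In 7 comparisons, 277 loci had a called total, 113 a called share, 276 a called single model, and 2833 had no call at any level. The share among all features is not given for these counts over 7 comparisons. They are not read as results about the multi-model loci.

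Time gave the most calls. Of the 3348 totals, 210 were higher and 64 lower at 12 than at 6 weeks, 274 in all or 8.18%, beside 5.53% of all features tested. In 27 of the 274 the ranges of the 10 libraries at 6 weeks and the 12 at 12 weeks did not overlap (9.85%), beside 10.8% of all called totals. Without WT sham replicate 2 or replicate 3 at 12 weeks the count was 178 or 182. The median of all 3348 log2 differences was 0.15. Of the 210 higher totals, 170 had the same sign in each of the 4 combinations of genotype and surgery and 35 in 3 of them. Of the 64 lower totals, 57 had the same sign in all 4 and 7 in 3. The calls were made on the average of these 4 combinations, so the agreement of signs is partly set by the selection and is no further support. In WT sham the 6-week side is 1 library. The matching share among all called features is not given. Libraries of each time were sequenced as a separate pool, so time after surgery, the age of the mice and the sequencing pool cannot be told apart.

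The total of MSTRG.1051 was 6.51 to 21.3 CPM at 6 weeks (median 10.8) and 52.3 to 129 CPM at 12 weeks (median 92.6). The groups did not overlap, and the log2 difference was 2.82 ± 0.24 (SE, edgeR adjusted p = 6.57e-06). MSTRG.648 had 3.51 to 19.7 CPM at 6 weeks (median 5.47) and 19.4 to 78.0 CPM at 12 weeks (median 58.5), with a log2 difference of 2.89 ± 0.23 (SE, edgeR adjusted p = 3.74e-06). Its ranges met at WT sham replicate 3 at 6 weeks (19.7 CPM) and KO DMM replicate 2 at 12 weeks (19.4 CPM).

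MSTRG.21578 went from 160 to 599 CPM in the 10 libraries at 6 weeks to 0.0555 to 0.807 CPM in the 12 at 12 weeks. Its medians were 330 and 0.212 CPM, and the log2 difference was -10.69 ± 0.50 (SE, edgeR adjusted p = 7.83e-09). No library of either time came near the other time, in either genotype or surgery. MSTRG.3803 had 1.58 to 25.1 CPM at 6 weeks (median 17.5) and 0.107 to 6.66 CPM at 12 weeks (median 1.48), a log2 difference of -2.92 ± 0.48 (SE, edgeR adjusted p = 0.00236) with overlapping ranges.

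Shares changed with time in 70 of 14835 models (0.472%, 45 higher and 25 lower) in 68 loci, beside 0.398% of the models tested, and 6 of the 70 had ranges that did not overlap (8.57%, beside 8.33% of all called shares). Without WT sham replicate 3 at 6 weeks the count was 321. Of the libraries at 12 weeks, dropping WT sham replicate 2 or 3 left 26 or 40 calls, dropping WT DMM replicate 1 left 37, and dropping KO DMM replicate 1 or 3 left 41 or 46. Model MSTRG.22488.5 was at 0% in all 10 libraries at 6 weeks and at 2.62% to 9.81% in all 12 at 12 weeks (edgeR adjusted p = 4.89e-05). The total of its locus was 80.4 to 146 CPM at 6 weeks and 44.8 to 190 CPM at 12 weeks, so the zeros were not those of a silent locus. Model MSTRG.17409.2 was at 0% to 0.360% at 6 weeks and at 65.2% to 97.1% in 9 of the 12 libraries at 12 weeks, but at 0.0304%, 0.0539% and 0.0403% in WT sham replicate 2, WT DMM replicate 3 and KO DMM replicate 1 (edgeR adjusted p = 0.000943). In those 3 libraries model MSTRG.17409.1 held 99.9% to 100%, and it held 99.6% to 100% in all 10 at 6 weeks.

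Among shares that fell with time, MSTRG.4845.1 was at 0% in all 12 libraries at 12 weeks and at 2.23% to 6.56% in 5 of the 10 at 6 weeks, with 0% in the other 5 (edgeR adjusted p = 1.64e-07). MSTRG.16081.5 held 15.9% to 28.1% in 8 of the 10 libraries at 6 weeks and 0.0635% and 0.0942% in the other 2. At 12 weeks it held 19.2% in WT DMM replicate 2 and 0.0257% to 0.212% in the other 11 (edgeR adjusted p = 1.26e-05). The values of both models fell into a low and a high set, and the times differed in how many libraries were in each. A fitted log2 change against a group at 0 depends on the count that the fit adds to zeros, so shares are given in its place.

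As single rows, 301 of 14835 models (2.03%, 199 higher and 102 lower) in 266 loci were called for time, beside 3.26% of all rows. Without WT sham replicate 3 at 6 weeks 308 were called, and 156 of the 301 (51.8%) were among them. At 12 weeks, dropping any 1 of 5 libraries (WT sham replicate 2 or 3, WT DMM replicate 1, WT DMM replicate 3, KO DMM replicate 1) brought the count to 182 to 200. In all, 100 loci had both a called single model and a called total, which is 37.6% of the former and 36.5% of the latter. In 140 loci a single model was called with neither the total nor a share. Model MSTRG.14018.5 had the smallest p of the rows that rose, and it rested on 1 library, as described below for genotype. MSTRG.21578.2, of the locus described above, and MSTRG.5992.1 had the smallest p among those that fell (edgeR adjusted p = 1.34e-06 and 0.000398).

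The comparison of KO with WT after DMM asks what the mutation does in operated knees. At 6 weeks 5 of 3348 totals (0.149%) were called, all lower in KO, beside 0.175% of all features. Ranges did not overlap in the 5, as in all 94 totals called. Dropping WT replicate 2 or 3 left 3 calls, and dropping KO replicate 1 left 2. MSTRG.12644 was at 4.79, 9.40 and 6.71 CPM in WT DMM and at 0.354, 0.165 and 0.15 CPM in KO DMM. The log2 difference was -4.98 ± 0.77 (SE, n = 3 and 3, edgeR adjusted p = 0.0197). Its KO sham libraries at the same time had 4.76, 1.53 and 16.2 CPM and its KO DMM libraries at 12 weeks 5.99, 4.30 and 2.76 CPM, so the level below 0.4 CPM occurred in the 3 KO DMM libraries at 6 weeks and in no other library.

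MSTRG.16823 was at 15, 11.3 and 7.55 CPM in WT DMM and at 0.917, 1.65 and 0.934 CPM in KO DMM at 6 weeks (log2 difference -3.29 ± 0.52 SE, n = 3 and 3, edgeR adjusted p = 0.02). KO sham at 6 weeks had 5.83, 2.94 and 12.4 CPM, and all 12 libraries at 12 weeks had 12.4 to 44.0 CPM. Both calls depend on the libraries used. The adjusted p of MSTRG.12644 was 0.0866 or 0.0660 when KO replicate 2 or 3 was dropped, and that of MSTRG.16823 was 0.0657 or 0.0667 when KO replicate 1 or 3 was dropped. In a fit to the 10 libraries at 6 weeks alone, 0 totals were called and both loci had an adjusted p of 0.564.

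Shares differed at 6 weeks in 16 of 14835 models (0.108%, 6 higher and 10 lower in KO) in 15 loci, beside 0.0885% of models tested, with ranges that did not overlap in 10. All 16 models called over the whole table are from multi-model loci, which hold 14835 of the 18071 models tested. The percentages are thus the same calls over different denominators. With the replicate block 7 were called. Dropping WT replicate 2 left 9 calls and dropping WT replicate 3 left 8, while dropping KO replicate 1, 2 or 3 left 3, 6 or 4. MSTRG.2007.18 had the smallest p. It held 86.8%, 89.3% and 87.0% of its locus in WT DMM and 0% in all 3 KO DMM libraries, where model MSTRG.2007.17 held 81.2%, 77.9% and 76.7% in its place (edgeR adjusted p = 5.51e-07). The locus total was 100, 89.9 and 107 CPM in WT DMM and 48.1, 38.2 and 113 CPM in KO DMM, which overlap. The same replacement, with MSTRG.2007.18 at 0% and MSTRG.2007.17 at 86.3%, was present in WT DMM replicate 1 at 12 weeks, and MSTRG.2007.18 held 83.7% to 93.9% in the other 18 libraries. The call was kept in 12 of 12 alternative fits, with adjusted p between 8.17e-09 and 0.000846.

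MSTRG.537.20 was at 0% in the 3 WT DMM libraries and at 49.4%, 51.5% and 50.8% in KO DMM at 6 weeks (edgeR adjusted p = 0.00753). At 12 weeks replicate 1 of both DMM groups, WT and KO, had it at 0% too, with model MSTRG.537.19 at 68.0% and 63.3%. MSTRG.17758.9 was at 0% in WT DMM and at 0%, 83.1% and 13.5% in KO DMM (edgeR adjusted p = 0.00821). MSTRG.6805.7 was at 0.0763%, 30.9% and 7.88% in WT DMM, with 0% in all of KO DMM (edgeR adjusted p = 0.00821), and at 0% to 0.415% in every library outside WT DMM at 6 weeks. The test pools the variance of the models of a locus as if they were independent, and for MSTRG.17758.9 it called a difference although 1 of the 3 KO libraries was at 0% like those of WT.

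As single rows, 11 of 14835 models (0.0741%, 1 higher and 10 lower in KO) were called at 6 weeks, beside 0.12% of all rows, and in all 11 the ranges did not overlap, as in all 81 rows called. Without WT DMM replicate 2 the count was 5, and with the replicate block 6. MSTRG.12928.6 was at 4.07, 5.59 and 4.57 CPM in WT DMM and at 0 in all 3 KO DMM libraries (edgeR adjusted p = 5.37e-05). It was also at 0, 0 and 0.0153 CPM in KO sham at 6 weeks, against 12.1 CPM in the WT sham library, and at 6.17 to 13.6 CPM in all 12 libraries at 12 weeks, KO included. Its locus had 5.21, 7.05 and 6.36 CPM in WT DMM and 0.354, 1.35 and 1.13 CPM in KO DMM at 6 weeks. MSTRG.12593.2 was at 0 in all 6 KO libraries at 6 weeks, at 0.563, 0.602 and 1.68 CPM in WT DMM and at 3.01 to 9.55 CPM at 12 weeks (edgeR adjusted p = 0.00105 in DMM). The ranges of KO and WT stood apart for both models over all 10 libraries at 6 weeks and overlapped at 12 weeks. MSTRG.23418.15, the model that was higher in KO, was at 0 in WT DMM and at 0.820, 0.465 and 1.25 CPM in KO DMM at 6 weeks (edgeR adjusted p = 0.0122).

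At 12 weeks KO against WT DMM gave 0 called totals and 0 called single models, beside 0% of all features at both levels. At an unadjusted p below 0.05 there were 85 totals (2.54%) and 896 single models (6.04%). DESeq2 called 28 totals (0.849%, beside 1.44% of all features) and 632 single models (5.11%, beside 2.42% of all rows). MSTRG.5123 had the smallest p among totals, with 7.71, 11.9 and 7.08 CPM in WT DMM and 2.02, 5.46 and 2.88 CPM in KO DMM. The log2 difference was -1.47 ± 0.41 (SE, n = 3 and 3, edgeR adjusted p = 1.0). The same locus had 28.4, 22.4 and 16.5 CPM in KO sham and 10.1, 4.05 and 10 CPM in WT sham at 12 weeks. MSTRG.20839.3 had the smallest p among single models, with 4.65, 4.05 and 0 CPM in WT DMM and 0, 0 and 0.0108 CPM in KO DMM (edgeR adjusted p = 1.0).

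Shares were called at 12 weeks in 2 models (0.0135%), both lower in KO, beside 0.0111% of models tested. Without 1 library of the 6 the count was 0 to 4. MSTRG.16822.16 held 9.94%, 16.9% and 3.70% in WT DMM and 0% in KO DMM (edgeR adjusted p = 0.0207). MSTRG.1474.18 held 17.6%, 13.0% and 19.0% in WT DMM and 0% in KO DMM (edgeR adjusted p = 0.0252). The zeros were not confined to KO DMM at 12 weeks: at 6 weeks MSTRG.1474.18 was at 0% in KO sham and in 2 of the 3 libraries of both DMM groups, and it held 29.2% in KO DMM replicate 1.

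**Figure D4:**
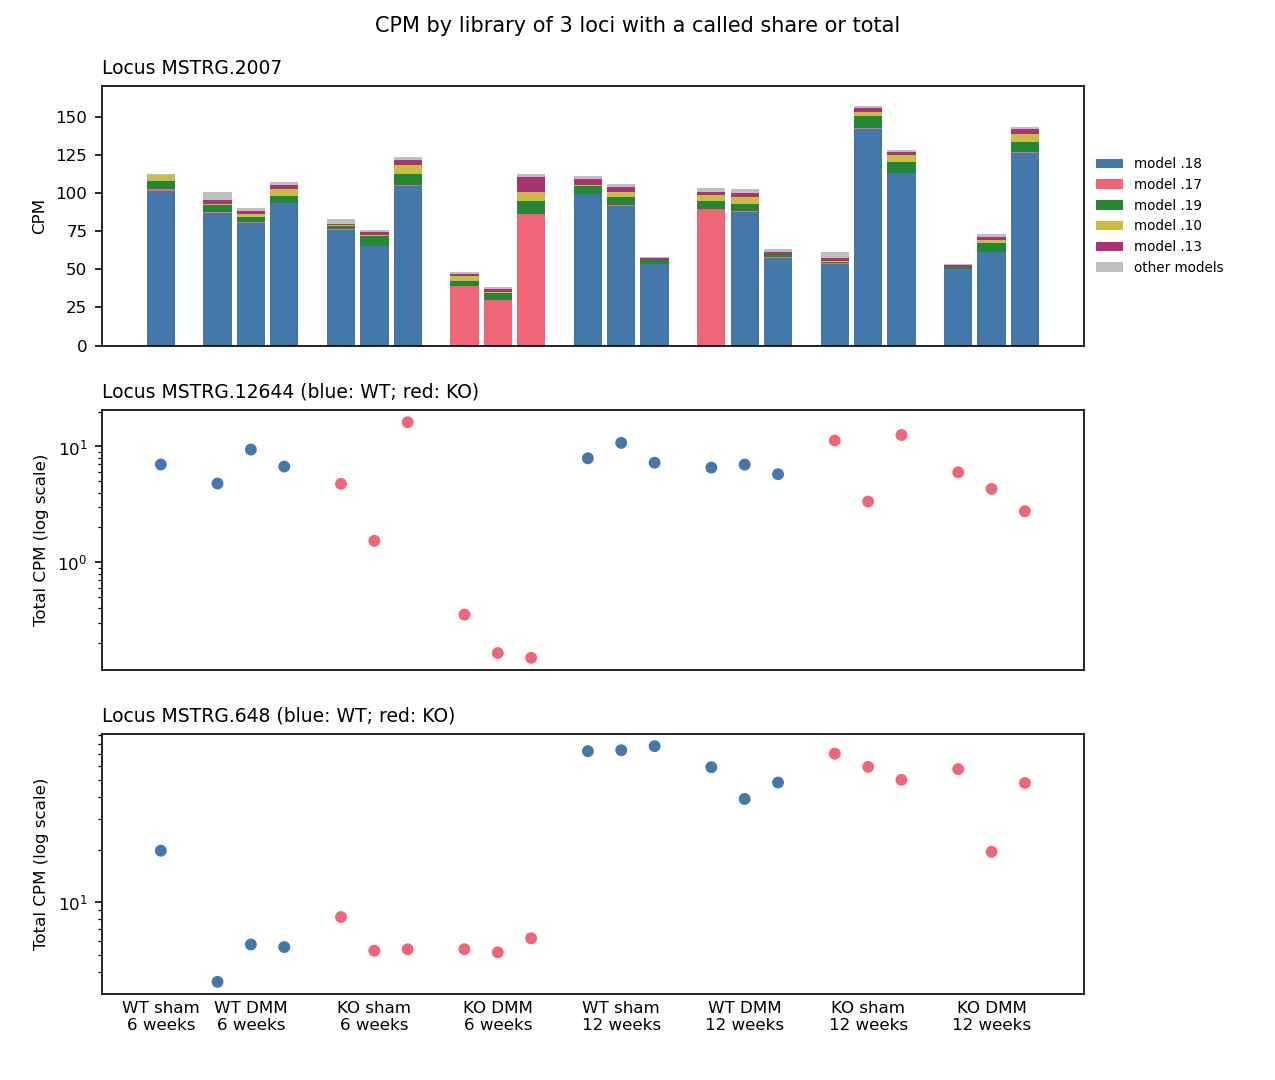
Top, CPM of the models of MSTRG.2007 in the 22 libraries, stacked. Middle and bottom, totals of MSTRG.12644 and MSTRG.648 in CPM on log axes, with WT in blue and KO in red. In MSTRG.2007 the colour changes in the 3 KO DMM libraries at 6 weeks and in 1 WT DMM library at 12 weeks, MSTRG.12644 lies below 0.4 CPM in KO DMM at 6 weeks alone, and MSTRG.648 is higher in all but 1 library at 12 weeks than in any at 6 weeks.

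WT DMM against WT sham at 12 weeks asks what the operation does in wild-type knees. It gave 0 called totals and 0 called single models, beside 0% of all features at both levels, with 77 totals (2.30%) and 857 single models (5.78%) at an unadjusted p below 0.05. DESeq2 called 23 totals (0.697%, beside 1.25% of all features) and 574 single models (4.64%, beside 2.14% of all rows). MSTRG.19054 had the smallest p among totals, at 134, 106 and 103 CPM in WT sham and 8.06, 2.63 and 1.33 CPM in WT DMM. The log2 difference was -4.88 ± 1.03 (SE, n = 3 and 3), with an adjusted p of 1.0 by edgeR and 7.96e-06 by DESeq2. In KO at 12 weeks it was at 102, 97.8 and 6.60 CPM in sham and at 3.33, 1.76 and 2.72 CPM in DMM, and at 6 weeks it was at 0.698 to 9.36 CPM in all 10 libraries. The level near 100 CPM was thus present in 5 of the 6 sham libraries at 12 weeks and in no other library.

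MSTRG.16418.3, the single model with the smallest p, went the other way at 12 weeks. It was at 0.151, 0.889 and 0.0443 CPM in WT sham and 0.515, 0.856 and 0.129 CPM in KO sham, against 68.5, 75.1 and 172 CPM in WT DMM and 86.3, 19.4 and 64.5 CPM in KO DMM. All 6 DMM libraries lay above all 6 sham libraries. For WT the log2 difference was 8.15 ± 1.59 (SE, n = 3 and 3), with an adjusted p of 0.996 by edgeR and 5.65e-10 by DESeq2. At 6 weeks the model did not separate the operations, with 29.8 to 112 CPM in the 4 sham libraries and 1.60 to 141 CPM in the 6 DMM libraries. Its locus total at 12 weeks was 157, 15.6 and 20.9 CPM in WT sham and 215, 198 and 262 CPM in WT DMM. In KO it was 301, 156 and 199 CPM in sham and 280, 152 and 215 CPM in DMM, which overlap.

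Shares were called in 5 models (0.0337%, 4 higher and 1 lower in DMM), beside 0.0277% of models tested, and in 0 of the 5 did ranges stand apart. Without 1 library of the 6 the count was 0 to 3, and with the replicate block it was 1. MSTRG.2898.6 was at 0% in all 3 WT sham libraries and at 0%, 45.3% and 26.1% in WT DMM (edgeR adjusted p = 0.0338). MSTRG.9389.5 was at 0% in WT sham and at 0%, 0% and 64.7% in WT DMM (edgeR adjusted p = 0.0338), so that its call rests on replicate 3, and without that library the log2 difference was -0.26. MSTRG.13634.1 was at 21.2%, 0% and 18.4% in WT sham and 0% in WT DMM (edgeR adjusted p = 0.0354). These calls were kept in 4, 4 and 3 of 12 alternative fits. Among those that lost all 3, the adjusted p, in the order named, was 0.0638, 0.0734 and 0.0734 with the replicate block, 0.0595, 0.131 and 0.0695 from the libraries at 12 weeks alone, and 0.267, 0.75 and 0.578 by limma with diffSplice.

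Averaged over the other factors, KO differed from WT in 18 totals (0.538%, 14 higher and 4 lower, beside 0.469% of all features). DMM differed from sham in 11 totals (0.329%, all higher, beside 0.261%). The effect of surgery differed between genotypes, the interaction, in 11 totals (0.329%, all lower, beside 0.275%). With the replicate block surgery gave 7 and the interaction 6. All of these calls were lost without WT sham replicate 3 at 6 weeks, the lone library of its group: 0 totals remained in each of the 3 comparisons. For genotype the count was 41 without KO sham replicate 3 at 6 weeks and 11 without WT sham replicate 1 or 2 at 12 weeks. For the interaction it was 7 without any 1 of WT sham replicate 2, WT DMM replicate 1 or 2, or KO sham replicate 1 at 12 weeks. MSTRG.15072, with the smallest p for genotype, was at 0.101 CPM in that library and at 5.52 to 15.5 CPM in the other 21. MSTRG.11469 was at 3.67 CPM there and at 43.6 to 92.2 CPM elsewhere. Their adjusted p for genotype of 0.000206 and 0.000371 (edgeR) became 0.748 and 0.967 without it. The totals lowest in KO by p, MSTRG.2020 and MSTRG.19345, went from 0.00942 and 0.0293 to 0.349 and 0.324.

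The same library decided most single models. Genotype had 43 calls (0.290%, beside 0.37% of all rows), surgery 31 (0.209%, beside 0.236%) and the interaction 31 (0.209%, beside 0.244%), and without that library 3, 1 and 0 were called. Without KO sham replicate 3 at 6 weeks the count for genotype was 76. MSTRG.14018.5 was at 0 CPM in it and at 59.1 to 99.2 CPM in the other 21 libraries. Model MSTRG.14018.4 of the same locus stood at 54.7 CPM there and below 0.4 CPM elsewhere, and the locus total was 55.8 CPM against 60.0 to 100 CPM. This exchange gave the smallest p of any single model for genotype, surgery and the interaction, and of those that rose with time. MSTRG.21131.5 was likewise at 0 CPM in that library and at 15.5 to 50.4 CPM elsewhere. MSTRG.12928.6 and MSTRG.12593.2, described above for KO DMM at 6 weeks, were the lower single models with the smallest p for genotype (edgeR adjusted p = 4.96e-06 and 5.92e-05).

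Shares gave 27 calls for genotype (0.182%, 4 higher and 23 lower, beside 0.149% of models tested), 17 for surgery (0.115%, 4 higher and 13 lower, beside 0.105%) and 5 for the interaction (0.0337%, beside 0.0277%). With the replicate block surgery gave 5 and the interaction 8. In none of the 27 and 17 did the ranges of the groups stand apart. Without WT sham replicate 3 at 6 weeks the counts rose to 127, 103 and 78, with 13, 10 and 4 of the original calls among them. These counts were unsteady in general: 15, 16 and 11 of the 22 libraries moved them by over 1.5 times when left out, and the lowest values were 7, 4 and 0. MSTRG.1474.18 and MSTRG.9259.4 had the smallest p for genotype, both lower in KO. They were below 1% of their locus in 13 and 10 of 22 libraries. MSTRG.18110.3, higher in KO, led in 7 libraries, all KO. MSTRG.8071.8 and MSTRG.2007.18 had the smallest p for surgery, both lower in DMM. MSTRG.8071.8 was below 1% in 17 of 22 libraries, and MSTRG.2007.18 led in 8 DMM and 10 sham libraries. MSTRG.2898.6, the model absent from all 4 WT sham libraries, was present in all 6 KO sham libraries at 10.1% to 50.9% and called as higher in KO (edgeR adjusted p = 0.0234). That call was lost, at adjusted p of 0.0502 to 0.0515, without any 1 of WT DMM replicate 3, KO DMM replicate 2 or KO DMM replicate 3 at 6 weeks or WT sham replicate 2 at 12 weeks. For time, 166 of the 274 totals were still called without that library (60.6%), out of 203.

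**Figure D5:**
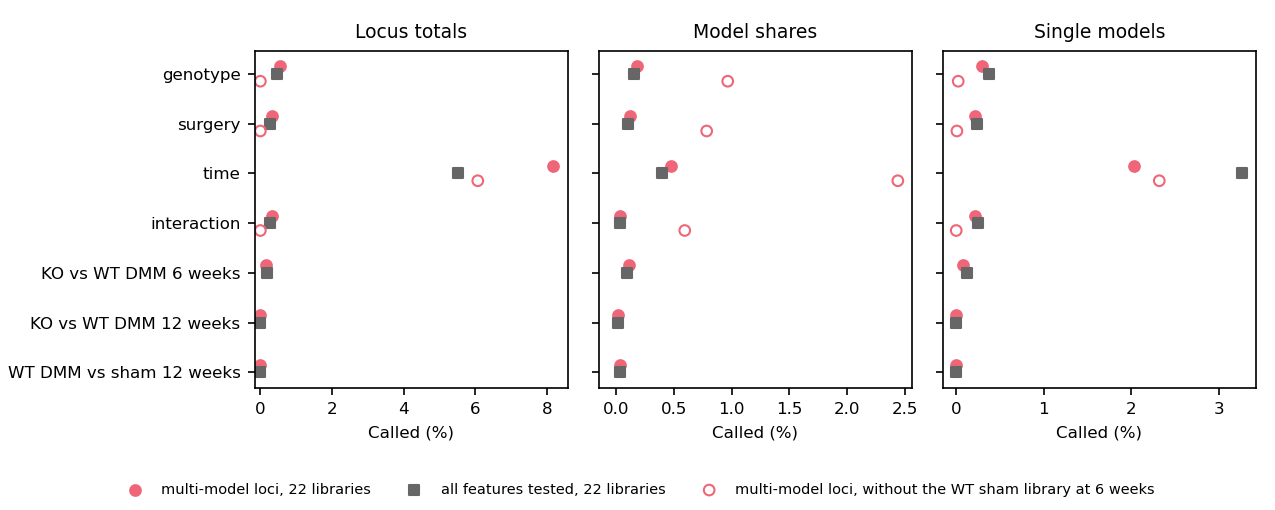
The percentage of multi-model loci or their models called at an adjusted p below 0.05 in 7 comparisons at 3 levels: red points for all 22 libraries, open points without the WT sham library at 6 weeks (where the comparison uses it), grey squares for all features tested. Red points lie near the grey squares except for totals over time (8.18% against 5.53%) and single models over time (2.03% against 3.26%), and open points are at 0 for the totals of genotype, surgery and interaction.

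The authors' deposited tables give their own comparison of single transcripts, in which the counts of models are not summed by locus. At 6 weeks the authors' deposited table of KO against WT DMM calls 561 of 10571 models of multi-model loci (5.31%, 262 higher and 299 lower), beside 4.57% of all its rows. They lie in 468 loci, of which 33 have models called in both directions. For 317 of the 468 loci the total computed here differed by less than 2-fold, and 5 had a total called by edgeR. These are all 5 totals called among the 3348 in this comparison. The deposited calls are not from the edgeR fit used here, which called 11 single models of these loci (0.0741%, beside 0.12% of all rows). The drop from 468 loci to 5 therefore does not isolate the effect of summing by locus. The median size of the deposited log2 fold change was 5.84, and that of the totals of these loci 0.62.

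At 12 weeks the authors' deposited table calls 291 of 10873 models (2.68%, 134 higher and 157 lower), beside 1.43% of all its rows, in 241 loci, 24 of them in both directions. Of the 241 totals, 195 differed by less than 2-fold and 0 were called by edgeR, as was the case for all 53728 features in this comparison. The same edgeR fit called 0 single models, and DESeq2 called 28 totals of multi-model loci (0.849%, beside 1.44% of all features). The drop from 241 to 0 is thus also between different tests. The median sizes were 6.74 for the deposited log2 fold changes and 0.35 for the totals. Most loci with a model called in the deposited tables thus had a total that differed by less than 2-fold between the same 6 libraries. How many of all 3348 totals did so is not given here, so this is not read as particular to these loci.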

How the data were processed

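RNA from microdissected knee cartilage was sequenced from SMART-seq2 kit libraries, with a separate pool for the samples of each time, per the labels' protocols. CASAVA 1.4, Trimmomatic, HISAT2, DESeq2 and build mm10 stand in the submitters' processing notes. The program behind the assembly and the division of reads: not given in the sources used here. What the authors deposited is 1 table of whole-number, unnormalized values for 23 samples, used as estimated counts because models of a locus share exons. Their deposited comparison tables hold, by header, log2 fold changes and p-values, raw and adjusted.

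Groups came from the sample titles. WT sham replicate 1 at 6 weeks was left out because its counts do not line up with the row names, and the lone library of that group was assumed to vary like the others. CPM were computed on column totals, which were 34.9 to 113 M counts. Shares were read where a locus total was at least 1 CPM. Locus totals sum all assembled models of a locus and leave out the reference-named transcripts that may lie at the same place.

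Tests used edgeR 4.0.16 in R 4.3.3 with TMM normalization, its filter on low counts (minimum count 10, minimum total 15), 1 mean for each of 8 groups and robust quasi-likelihood fits. Shares were tested with its diffSpliceDGE function, which pools the variance over the models of a locus. SE is the size of the log2 difference divided by the square root of F. Simulated counts with known changes were used to test the code. They were drawn independently for each model and with less spread than the counts here. They do not show how the tests behave where models replace each other among replicates. Alternatives were no filter, other size factors, a replicate block, the misaligned column kept, DESeq2 1.42.0 or limma 3.58.1 (voom and diffSplice) as the test, the libraries of a single time alone, and leaving out each library in turn. Averages without the lone WT sham library at 6 weeks, taken over the 3 pairs of groups that remain, were added after seeing the data.

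For each comparison and level, at most 2 rising and 2 falling identifiers with the smallest p among calls are named, or the single one with the smallest p where none was called. For description, the 5 highest totals, 6 lowest variance ratios with exchange, 3 steadiest shares, 3 loci with most models and those next to the limit are named. The loci, lists and tests were chosen with earlier results of these data known.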

Additional observations from a re-analysis of the deposited data

Results flagged for a closer look

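The effect of surgery differed between genotypes in 9 named loci or models by the edgeR interaction term, which is (KO DMM minus KO sham) minus (WT DMM minus WT sham) on the log2 scale, averaged over both times. For the totals of MSTRG.15072 and MSTRG.11469 it was -3.41 and -2.06 (edgeR adjusted p = 0.000466 and 0.00107), and for the single models MSTRG.14018.5 and MSTRG.21131.5 it was -7.93 and -7.11 (edgeR adjusted p = 4.11e-07 and 5.2e-05). In each of these 4 the WT sham library at 6 weeks stood far below all others, and at 12 weeks, where that library plays no part, the term was -0.46, 0.03, -0.20 and -0.14. For the single model MSTRG.9248.1 the term was 11.57 (edgeR adjusted p = 0.0465), and 3.49 and not called at 12 weeks. It led in 1 library, that same WT sham library, at 99.7% of its locus, and was below 1% in 17 of 22. Its call was kept in 5 of 26 alternative fits.

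For the shares of MSTRG.16483.5 and MSTRG.13973.5 the term was 15.68 and 8.97 (edgeR adjusted p = 0.00512 and 0.0185), and for those of MSTRG.16822.16 and MSTRG.5150.2 it was -16.19 and -23.98 (edgeR adjusted p = 0.0406 and 0.0439). These 4 kept their sign at 12 weeks alone, at 21.19, 17.25, -15.72 and -26.90 (edgeR adjusted p = 0.00683, 0.00017, 0.00683 and 0.0158). Over all 27 alternative fits the calls were kept in 25, 20, 14 and 9, with a highest adjusted p of 0.103, 0.9999, 0.0946 and 1.0. By limma with diffSplice none of the 4 was called (adjusted p = 0.103, 0.9999, 0.0799 and 0.145), and with the replicate block MSTRG.5150.2 was not (0.132). Without KO DMM replicate 2 at 12 weeks the adjusted p of MSTRG.13973.5 was 0.493. Their models are at 0 in whole groups or in single libraries, so the size of a log2 term depends on the count added to zeros in the fit. What lies behind these differences was not tested.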

How the results depend on the processing

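Counts of calls are given in the order genotype, surgery, time, interaction, KO against WT DMM at 6 weeks, the same at 12 weeks, and WT DMM against sham at 12 weeks. DESeq2 called 168, 99, 767, 99, 135, 28 and 23 totals and 1496, 1237, 3046, 1295, 1188, 632 and 574 single models, and limma voom with diffSplice 70, 39, 406, 39, 50, 30 and 63 shares. Among all features DESeq2 called 1.44% and 1.25% of totals and 2.42% and 2.14% of single rows in the last 2 comparisons. Such shares are not given for the other counts of this section, which are not read as results about the multi-model loci. With the misaligned column kept, 3, 2, 169, 2 and 0 totals were called in the first 5 comparisons, 97, 62, 291, 54, 4, 0 and 0 shares, and 27, 20 and 17 single models for genotype, surgery and interaction and 2 for KO against WT DMM at 6 weeks. With the libraries of that time alone, KO against WT DMM at 6 weeks gave 0 totals, 6 shares and 1 single model, and both comparisons at 12 weeks gave 1 single model. Taking no filter or other size factors changed no count by over 1.5 times. The causes of these changes were not tested.

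With a replicate block, surgery gave 7 totals and 5 shares and the interaction 6 totals and 8 shares. KO against WT DMM at 6 weeks gave 7 shares and 6 single models, and WT DMM against sham 1 share. No other count moved by over 1.5 times. The block term is shared by all libraries of the same number, whatever their group, so this is not a fit of paired knees. Deviations of same-numbered libraries from their group means correlated at 0.0345 to 0.307 across surgery and at -0.242 to 0.0898 across genotype, and 14 of 18 libraries correlated best with their own number across surgery. Of the 9 pairs across surgery 6 were above 0.1, and other numbers had a median of -0.093. All 9 were positive, with a median of 0.136. To read them as pairs, all 9 above 0.1 or labels that state shared animals were required. That limit is a choice made here, and pairing across surgery is not settled. If knees share animals, the genotype and time averages count knees of the same mouse as independent.

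Leaving out each library in turn gave 0 to 41, 0 to 16, 178 to 336, 0 to 15 and 2 to 6 called totals in the first 5 comparisons and 0 in the others. It gave 7 to 127, 4 to 103, 26 to 321, 0 to 78, 3 to 12, 0 to 4 and 0 to 3 shares, and 3 to 76, 1 to 46, 182 to 392, 0 to 42, 5 to 14 and 0 to 2 single models. The interaction of MSTRG.11469 ranged from -2.16 to 0.030 and the surgery difference of MSTRG.15072 from -0.053 to 1.63. The difference of MSTRG.9389.5 in WT DMM against sham ranged from -0.26 to 12.30. For MSTRG.14018.5 the range was -0.056 to 3.81 (genotype), -0.054 to 3.96 (surgery) and -0.027 to 3.89 (time), and for MSTRG.21131.5 it was -0.13 to 3.46 and -0.12 to 3.47 (genotype and surgery). Each of these except MSTRG.9389.5 turned sign without WT sham replicate 3 at 6 weeks. For the named loci, 884 of 1054 such values kept direction and side of the threshold, 161 lost the call, 1 gained it and 8 turned sign. Under the other alternatives 269 of 322 kept both, 49 lost the call and 4 gained it. MSTRG.5123, MSTRG.19054, MSTRG.20839.3 and MSTRG.16418.3 were not called in the main fit. They count as kept wherever they stayed uncalled in the same direction.

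Exchange was counted in 2784 loci at 50% and in 952 at 95%. Requiring 50% of the locus in every library left 14 loci with a different leading model in KO and WT DMM at 6 weeks. The other alternatives of exchange and leading model stayed within 1.5 times. The median variance ratio is taken over loci and has no replicate spread, so its movement under the alternatives is not judged here. Depth limits shares in low loci, since a locus at 1 CPM has 34.9 to 113 counts in a library, and the lone WT sham library at 6 weeks limits all averages that use it.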
